A study of Mus musculus with 12 samples.

Results

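Acyl-CoA thioesterases (Acot genes) split fatty acyl-CoA into free fatty acid and coenzyme A. The members described here are 10 genes, Acot1, Acot2, Acot3, Acot4, Acot5, Acot6, Acot7, Acot8, Acot12 and Acot13, among 19938 genes measured in mouse liver. They were chosen by name, as the rows of the array table whose annotated gene symbol is one of these, and each had 1 probe set. The family was taken up with the genotype results of these arrays known, Acot3 being among the genes that differed, so the genotype differences below are a description and carry no independent weight. The data are linear probe-set intensities from Affymetrix gene arrays, 1 array per mouse. All 12 mice were males on the C57BL/6J background, fasted for 24 h and given food again for 6 h before the liver was taken. One group of 6 was wild type (WT). The other 6 carried LRH-1 K289R, a knock-in that replaces a lysine of the nuclear receptor LRH-1 (gene Nr5a2) with arginine at a site where SUMO is attached; the labels do not say whether the mutation is homozygous, nor how old the mice were.

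Cells hold fatty acids as CoA thioesters, which are the substrates of oxidation, triglyceride synthesis and chain elongation, and a thioesterase sets the opposite reaction against the acyl-CoA synthetases. In the mouse the type I enzymes (Acot1 to Acot6) are close paralogs in 1 gene cluster, and several of them are classical targets of the fatty acid receptor PPARα, raised by fasting and by fibrate drugs. The type II enzymes (here Acot7, Acot8, Acot12 and Acot13) have an unrelated fold. Acot1 and Acot12 work in the cytosol, Acot2 in mitochondria, Acot3, Acot4, Acot5, Acot6 and Acot8 in peroxisomes, Acot7 mainly in the cytosol, and Acot13 on mitochondria.

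The liver label held: Alb, which encodes serum albumin, had a mean intensity of 7067 ± 373 in the WT livers and 7134 ± 477 in the K289R livers (SD, n = 6 each). Arrays K289R 1 and K289R 3 carried pancreatic acinar transcripts (mean log2 intensity of 13 markers 8.60 and 9.21, against 4.25 to 4.47 in WT). Acute phase genes, switched on in hepatocytes during inflammation, were high on WT 1 and WT 3 (mean log2 intensity of 17 genes 9.83 and 9.97, against 8.38 to 8.66 on the other WT arrays); in K289R they ran from 8.38 to 9.04, highest on K289R 4 and then K289R 3 (8.84). All 17 had lower means in K289R, with a median log2 difference of -0.30, and none passed the limma test (2 at an unadjusted p under 0.05). Fewer cells of a type and less RNA per cell cannot be told apart in whole liver. For lists of other cell types the median log2 difference, K289R minus WT, was 0.07 over 10 Kupffer cell and macrophage markers, 0.10 over 8 endothelial, 0.02 over 9 stellate cell, 0.06 over 5 cholangiocyte, 0.07 over 7 adipocyte, -0.27 over 9 skeletal muscle and -0.15 over 7 lymphocyte markers. One adipocyte marker, Retn, was called higher (log2 difference 0.47, limma adjusted p = 0.0364). Every K289R array (38.8 to 55.1) lay above every WT array (28.2 to 37.8) for Retn, as in 0.853% of all genes. Its highest values were on K289R 3 and K289R 1 (55.1 and 54.4). Adipoq was also highest on these acinar arrays (13.9 and 16.4, against 6.28 to 9.40 on the other 10). Muscle markers were highest on WT 1 and K289R 3 (mean log2 intensity 6.99 and 5.82). The part of any of these cells and responses in the results below was not tested.

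Over the family, 2 of 10 genes, Acot3 and Acot4, were called higher in K289R (limma, Benjamini-Hochberg adjusted p under 0.05 over all 19938 genes), none was called lower, and 8 did not pass; at an unadjusted p under 0.05 there were 4, all higher. The adjusted rule called 0.572% of all genes, 0.481% upward and 0.0903% downward. An unadjusted p under 0.05 was found for 2399 of all 19938 genes, 1280 of them higher in K289R. Since the family was taken up for its difference in this contrast, nothing is read from these comparisons. The median log2 difference of the 10 genes was 0.27, against -0.01 over all genes, and 9 of 10 were above 0, against 46.0% of all genes. Without any low-value filter all 10 members were tested. Among the 6 type I genes the median was 0.45, and among the 4 type II genes it was 0.14. The call of Acot3 was lost in 9 of 12 fits that left out 1 array, whereas Acot4 kept its call in all 12 of those fits.

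**Figure D1:**
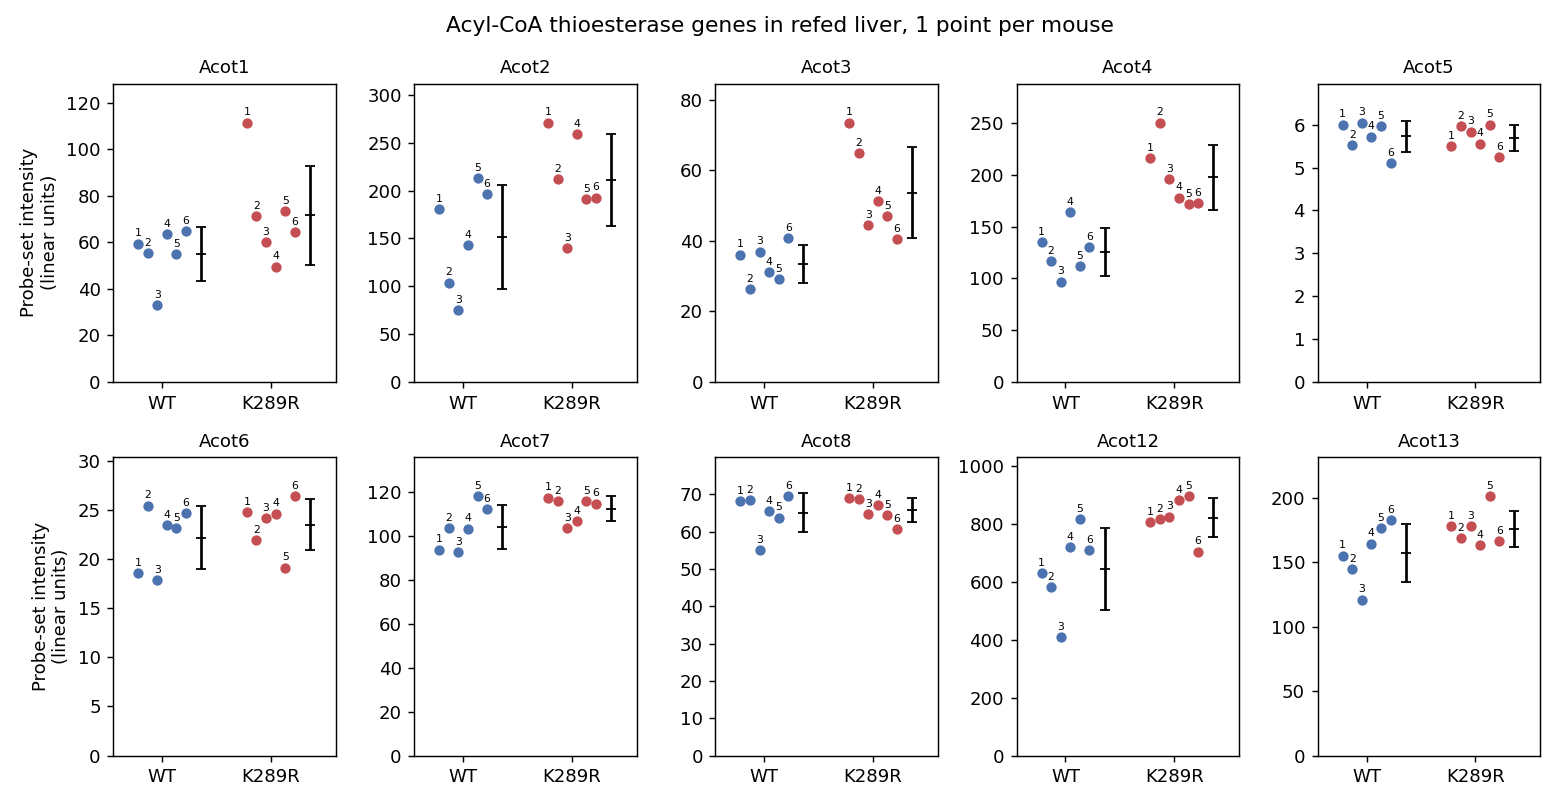
Linear probe-set intensity of the 10 acyl-CoA thioesterase genes, 1 point per mouse, numbered by replicate, with the mean and SD of 6 mice beside each group (blue WT, red K289R). For Acot4 the groups do not overlap, for Acot3 they touch only at WT 6 and K289R 6, and WT 3 lies lowest of its group for 8 genes.

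Because Acot4 and Acot3 carried the calls, sequence at their start sites is shown first, from RefSeq promoter windows (250 bases before to 50 after a start, build GRCm38.p6), which held 8 of the 10 members (not Acot6 and Acot13). Motifs searched on both strands were AGGTCA, the half-site of many nuclear receptors, AGGTCANAGGTCA, the direct repeat that PPARα binds with its partner RXR, and CAAGGTCA and CAAGGCCA, the extended half-sites bound by LRH-1 as a monomer. Also searched were GGGCGG, found in many core promoters, and TATAAA, another core promoter element. Each extended site with T contains the half-site. In the lines below capitals mark the match, read on the given (plus) strand, so it appears as its reverse complement.
Acot4, chr12:84038129-84038378, plus strand, the 250 bases before the start: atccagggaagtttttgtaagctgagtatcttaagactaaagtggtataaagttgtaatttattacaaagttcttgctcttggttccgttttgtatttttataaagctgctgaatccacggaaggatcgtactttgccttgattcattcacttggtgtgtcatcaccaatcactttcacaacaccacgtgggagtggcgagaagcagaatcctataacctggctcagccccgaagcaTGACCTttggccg
Acot3, chr12:84052151-84052180, plus strand, 30 bases just after the start: ttattagctctTGACCTTGtctgtctgctg

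In Acot4 the half-site AGGTCA began 13 bases before the start used for this window. The RefSeq gene record of Acot4 begins farther upstream, at position 84037254, and the sequence before that position was not searched. In Acot3 the match was the longer CAAGGTCA, 18 bases after the first of its annotated starts. The half-site was also in the windows of Acot5 and Acot12, neither of which was called, and in 16.3% of 32851 promoter windows of this length. CAAGGTCA was in 1.56% of those windows and, among the members, in Acot3. CAAGGCCA (2.40% of windows) and the direct repeat (0.0396%) had no match in any member. TATAAA (13.6% of windows) matched in Acot4, at positions -205, -153 and -151 from the start used, so not close to it. GGGCGG (35.7%) matched in Acot1, Acot7, Acot8 and Acot12. A match is a description of the letters in these windows and shows no binding.

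The peroxisomal type I genes held the called members. Acot4, which encodes a peroxisomal succinyl-CoA thioesterase, measured 96.8 on the lowest, 123 at the median and 164 on the highest WT array, and 172, 187 and 251 on the corresponding K289R arrays. Every K289R mouse was thus above every WT mouse. The WT mean was 126 ± 23.1 and the K289R mean 197 ± 31.0 (SD, n = 6 each), a 1.58-fold difference (95% interval 1.32 to 1.88; limma adjusted p = 0.0139; probe set 10397153). No overlap between the genotypes was seen in 1.24% of all genes, and in 0.853% with K289R higher. Acot4 ranked 68 of 19938 by p and 79 by the size of the rise.

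Acot3, a peroxisomal thioesterase of long-chain acyl-CoA, measured 26.4, 33.6 and 40.7 (lowest, median, highest) in WT and 40.4, 49.2 and 73.6 in K289R. All K289R arrays but 1 lay above every WT array; K289R 6, at 40.4, lay just under WT 6, at 40.7. Means were 33.4 ± 5.40 and 53.6 ± 12.9 (SD, n = 6 each), 1.59-fold apart (95% interval 1.29 to 1.95; limma adjusted p = 0.0404; probe set 10397158). Its WT values lay around the median gene of the arrays (33.0 to 36.2), and no detection call was at hand to separate signal from background at that level. The K289R mice spread more in Acot3 than WT mice, with SDs of 0.33 and 0.24 on the log2 scale. That difference in spread was not tested.

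Both calls were recomputed on smaller sets of arrays. Without the acinar arrays K289R 1 and 3, the log2 difference was 0.62 for Acot4 (limma adjusted p = 0.0917) and 0.60 for Acot3 (adjusted p = 0.0954). Without the acute phase arrays WT 1 and 3 these differences were 0.60 (adjusted p = 0.0577) and 0.74 (adjusted p = 0.0727), and without all 4 arrays 0.56 (adjusted p = 0.216) and 0.68 (adjusted p = 0.124). The differences with all arrays were 0.66 and 0.67, so neither gene kept its call in these smaller sets, which also held fewer mice, while the sizes stayed within 0.56 to 0.74.

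Acot5, a peroxisomal medium-chain enzyme, and Acot6, which acts on branched phytanoyl- and pristanoyl-CoA, gave little signal. Acot5 lay between 5.11 and 6.05 on WT arrays and between 5.24 and 6.00 on K289R arrays. Acot6 lay between 17.8 and 25.4 and between 19.1 and 26.4, respectively. Both lay under the median gene on all 12 arrays, and their log2 differences were -0.01 (95% interval -0.15 to 0.13) and 0.09 (95% interval -0.13 to 0.30). At such levels an array cannot separate a low transcript from background, so no statement about their genotype difference is made. The values of Acot5 and Acot6 moved in opposite directions over the arrays (r = -0.78 over 12 arrays with genotype means removed), which is given as a description of dim signals that share every array.

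Acot2 and Acot1, the mitochondrial and cytosolic members of the cluster, were higher in the K289R means without passing. Acot2 measured 75.1, 162 and 213 (lowest, median, highest) in WT, and 140, 202 and 271 in K289R. The WT values spread 2.83-fold from lowest to highest, and the groups overlapped over most of their range. Means were 152 ± 54.3 and 211 ± 48.3 (SD, n = 6 each), a log2 difference of 0.53 (95% interval 0.06 to 1.01; limma adjusted p = 0.361).

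Acot1 measured 33.0, 57.3 and 64.8 in WT and 49.6, 67.8 and 111 in K289R, with the highest value on K289R 1, an array with acinar transcripts. Only 3 K289R arrays exceeded every WT array. The log2 difference was 0.37 (95% interval -0.01 to 0.74; limma adjusted p = 0.428), and 0.10 (adjusted p = 0.853) without the 4 arrays named above. Acot1 and Acot2 encode nearly identical proteins, and probe sequences were not used here, so signal that one probe set picks up from the transcript of the other cannot be told apart from its own; the same holds for the other paralogs of the cluster.

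**Figure D2:**
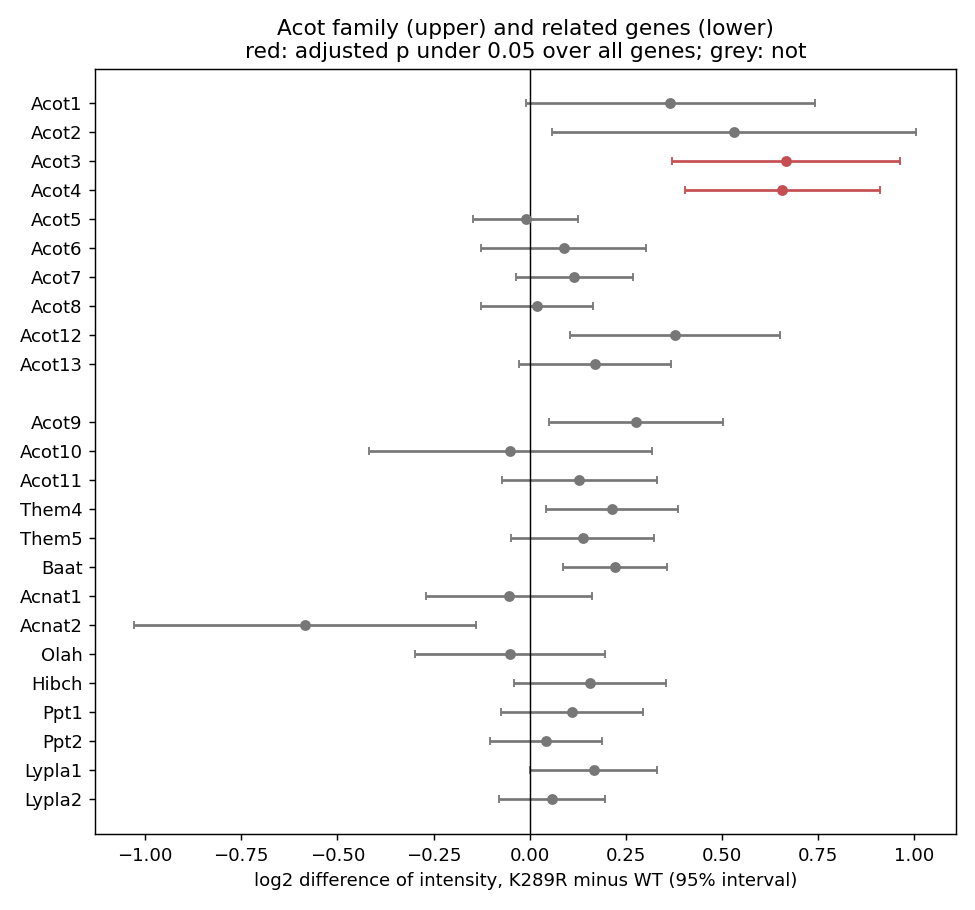
Log2 difference of intensity, K289R minus WT, with its 95% interval from limma, for the 10 Acot members (upper) and 14 related genes (lower); red marks an adjusted p under 0.05 over all genes. Acot3 (0.67) and Acot4 (0.66) are the red points, and Acnat2 (-0.58) lies farthest below 0.

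All 4 type II genes had positive log2 differences, none of which passed, and each had a larger SD of log2 values in WT than in K289R; neither the types nor the spreads were compared by a test. Acot12, a cytosolic enzyme that hydrolyses acetyl-CoA, measured 410, 669 and 817 (lowest, median, highest) in WT and 703, 820 and 895 in K289R. The lowest WT value was on WT 3, and 3 of the K289R arrays exceeded every WT array. Its means were 644 ± 141 and 821 ± 68.0 (SD, n = 6 each), a log2 difference of 0.38 (95% interval 0.11 to 0.65; limma adjusted p = 0.251). It was 0.22 without WT 1 and 3.

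Acot13 (Them2), which associates with mitochondria and binds the phosphatidylcholine transfer protein, measured 121, 160 and 183 in WT and 163, 173 and 201 in K289R. K289R values lay inside or just above the upper part of the WT range. The log2 difference was 0.17 (95% interval -0.03 to 0.37; limma adjusted p = 0.485). Acot7, known for its abundance in brain and its activity on arachidonoyl-CoA, lay between 92.6 and 118 on WT arrays and between 103 and 117 on K289R arrays, a log2 difference of 0.12 (95% interval -0.04 to 0.27). Acot8, the peroxisomal type II enzyme with broad substrates, lay between 55.2 and 69.5 and between 60.7 and 69.1, respectively, a log2 difference of 0.02 (95% interval -0.13 to 0.16). Its interval was among the narrowest of the family, and the groups overlapped almost completely.

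The type I genes lie together on chromosome 12, in the RefSeq order Acot2, Acot1, Acot4, Acot3, Acot5, Acot6. Differences were largest at the adjacent Acot4 and Acot3. The dim probe sets of Acot5 and Acot6, which come after them, are not read here, so nothing is read from the position within the cluster. The measured genes just outside the cluster had differences of both signs. On the Acot2 side Numb, a regulator of Notch signalling, Heatr4 and Riox1 had log2 differences of 0.09, -0.01 and -0.16, and on the Acot6 side Dnal1, Pnma1 and Mideas had 0.01, -0.24 and -0.05. None of these 6 passed (limma adjusted p from 0.399 to 0.975), and the difference between the cluster and its neighbours was not tested. Riox1, Dnal1 and Pnma1 were dim as well, with WT means of 25.8, 8.61 and 16.1, under the median gene of the arrays (33.0 to 36.2). Their differences are therefore not read either. Acot12 and Acot13 lie on chromosome 13, Acot7 on chromosome 4 and Acot8 on chromosome 2.

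**Figure D3:**
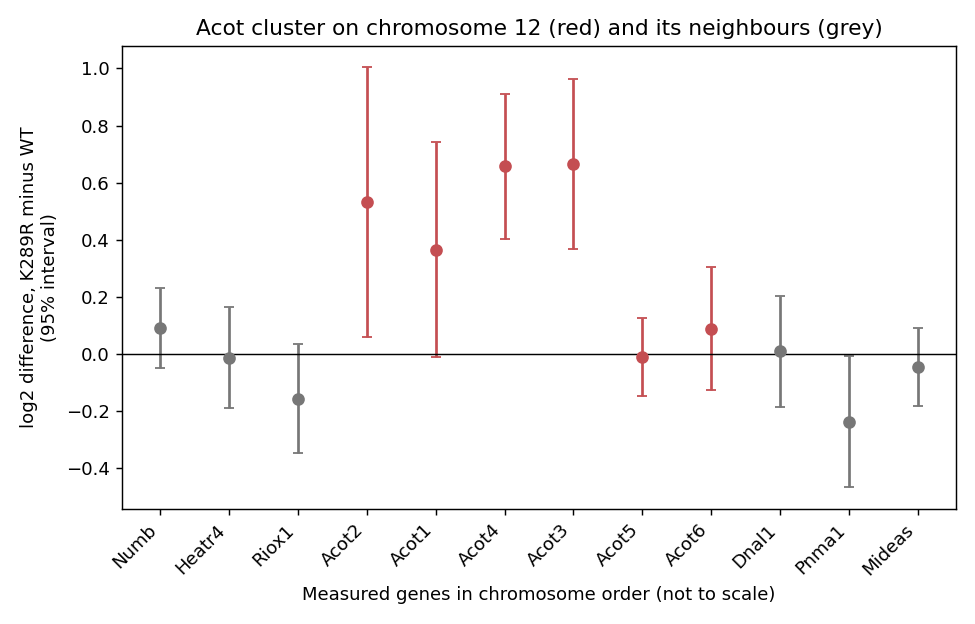
Log2 difference, K289R minus WT, with 95% interval, for the 6 type I Acot genes (red) and the 3 nearest measured genes on each side (grey), in chromosome order and not to scale. Acot2, Acot1, Acot4 and Acot3 lie between 0.37 and 0.67, whereas the neighbours lie between -0.24 and 0.09. The probe sets of Acot5, Acot6, Riox1, Dnal1 and Pnma1 are dim.

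Mice of 1 genotype also differed from each other in these genes, and 1 WT mouse stood out. WT 3 was the lowest WT array for 8 of the 10 members, all except Acot3 and Acot5. WT 1, with a similar acute phase level (9.83 against 9.97), was lowest for none: its Acot2 intensity was 181, against 75.1 on WT 3, and its Acot12 intensity 629, against 410. For Acot6 and Acot7, in contrast, WT 1 lay next to WT 3 at the low end: Acot6 measured 18.6 and 17.8 on these arrays, against 23.1 to 25.4 on the other WT arrays, and Acot7 93.6 and 92.6, against 103 to 118. The part of the acute phase in these values was not tested. Among K289R arrays, K289R 1 was highest for 5 members and K289R 6 lowest for 4. The SD of log2 values in WT was 0.59 for Acot2, 0.36 for Acot1 and 0.35 for Acot12, against a median of 0.14 over all genes. In K289R it was 0.35, 0.39 and 0.12.

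**Figure D4:**
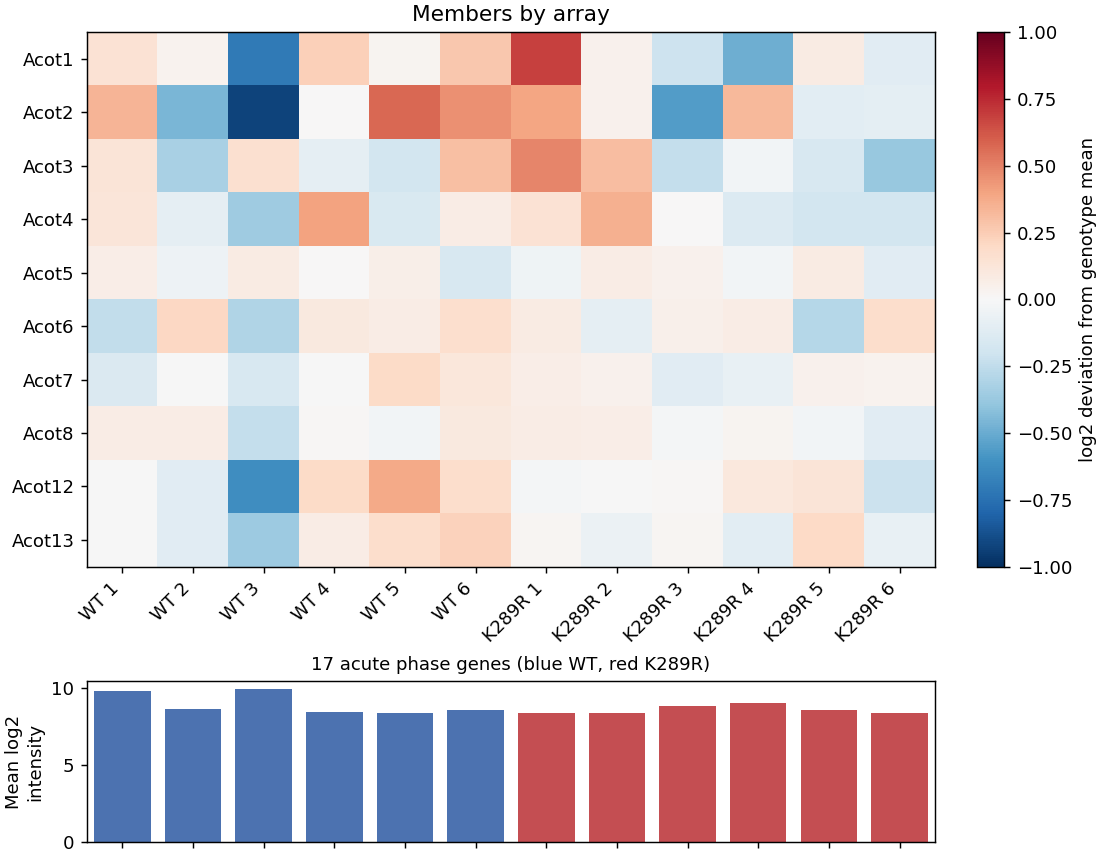
Upper panel: log2 deviation of each member from its genotype mean on each of the 12 arrays (blue below, red above). Lower panel: mean log2 intensity of 17 acute phase genes on the same arrays, from 8.38 to 9.97; WT 3 and WT 1 are high for acute phase genes; WT 3 is low for most members, and WT 1 for Acot6 and Acot7.

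Covariation with PPARα target genes was examined after genotype means had been removed, so that the difference between genotypes played no part. The list held 26 measured genes with no Acot among them (such as Cyp4a14, Ehhadh, Vnn1, Cpt1a and Angptl4), drawn up with earlier results of these data known, and 10 relations were computed. The permutations over 12 arrays shuffled deviations regardless of genotype. The list mean spread more in WT than in K289R (SD of 0.16 and 0.08 on the log2 scale), so these p-values are approximate and may be too small. Acot2 followed the list mean most closely, with Pearson r = 0.87 (permutation p = 0.00029, two-sided; 0.00145 after adjustment over 10 members) and Spearman rho = 0.84 (permutation p = 0.00093; 0.0092 adjusted) over 12 arrays. Acot13 had r = 0.87 (permutation p = 0.00027; 0.00145 adjusted) and rho = 0.82 (permutation p = 0.00184; 0.0092 adjusted). Acot12 had r = 0.83 (permutation p = 0.00059; 0.00197 adjusted) and rho = 0.67 (permutation p = 0.0204; 0.0407 adjusted). Over the 12 arrays, mice with more of these 3 transcripts thus had more of the PPARα targets. The relation was computed for this list alone, so whether it is particular to PPARα targets was not tested. WT 3 and then WT 2 were also the lowest WT arrays for the lists of CoA, peroxisomal and beta-oxidation genes described below. For beta-oxidation the mean log2 intensity was 9.29 and 9.37 there, against 9.41 to 9.54 on the other WT arrays.

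WT 3 and WT 2 lay farthest from the median of the list mean. Without them r was 0.72 for Acot2, 0.73 for Acot13 and 0.65 for Acot12. Within WT alone the relation was close by Pearson r, with r = 0.99 for Acot2 (exact permutation p = 0.00278), 0.95 for Acot13 (exact permutation p = 0.00417) and 0.90 for Acot12 (exact permutation p = 0.0111). By rho within WT the values were 0.94, 0.94 and 0.71 (exact permutation p = 0.0167, 0.0167 and 0.136). The p-values within 1 genotype were not adjusted over the members. In K289R alone r was 0.49, 0.56 and 0.55 (exact permutation p = 0.324, 0.263 and 0.25). Whether the relation differs between the genotypes was not tested.

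Acot1 (r = 0.70, adjusted permutation p = 0.0309; rho = 0.70, adjusted permutation p = 0.0359), Acot7 (r = 0.66, adjusted permutation p = 0.0331; rho = 0.74, adjusted permutation p = 0.0243) and Acot8 (r = 0.65, adjusted permutation p = 0.0331; rho = 0.38, adjusted permutation p = 0.326) followed the list less closely by Pearson r. By rho, Acot1 and Acot7 lay above Acot12 (0.67). Without WT 3 and WT 2 the r of Acot1, Acot7 and Acot8 was 0.57, 0.60 and 0.59. The genes with the largest genotype difference were not among these members. Acot3 had r = 0.37 (adjusted permutation p = 0.297; rho = 0.43, adjusted permutation p = 0.266) and Acot4 r = 0.44 (adjusted permutation p = 0.222; rho = 0.33, adjusted permutation p = 0.372). Without WT 3 and WT 2 these r values were 0.56 and 0.11. Within WT alone r was 0.17 for Acot3 and 0.47 for Acot4 (exact permutation p = 0.717 and 0.36). In K289R alone it was 0.74 and 0.39 (exact permutation p = 0.1125 and 0.424), and Acot3 had the highest r of the members there. Acot3 had r = 0.67 over the arrays without WT 1 and 3 (adjusted permutation p = 0.0755). The dim Acot5 and Acot6 had r = -0.08 and 0.08 (adjusted permutation p = 0.804 for both; rho = -0.09 and -0.03, adjusted permutation p = 0.87 and 0.94).

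**Figure D5:**
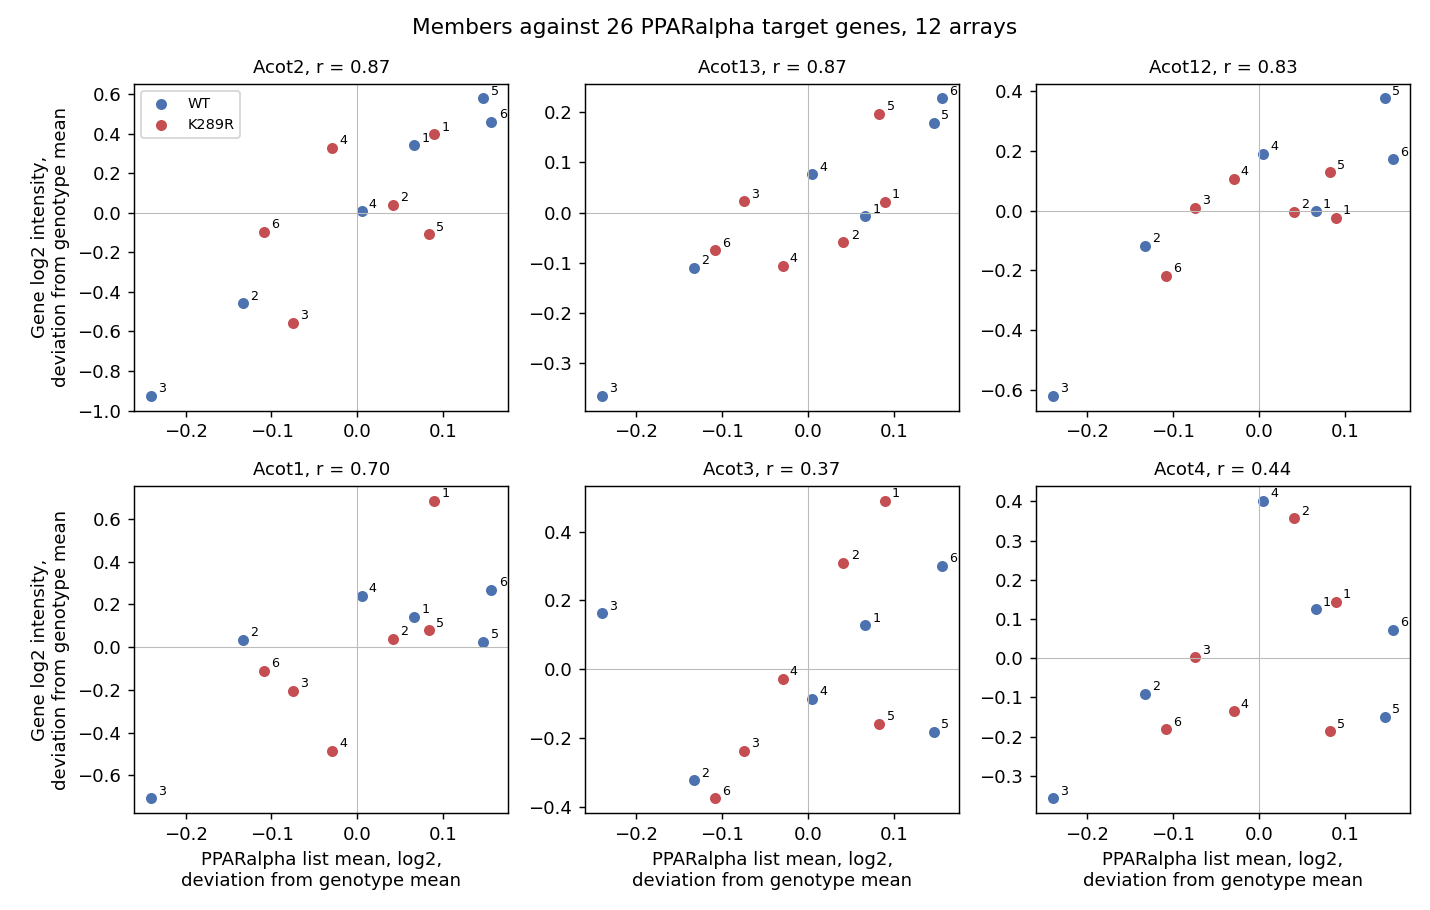
Log2 intensity of 6 members against the mean log2 intensity of 26 PPARα target genes, both as deviations from the genotype mean, 1 numbered point per mouse (blue WT, red K289R). Points for Acot2 (r = 0.87), Acot13 (0.87) and Acot12 (0.83) lie along a line that WT 3 extends, whereas those for Acot3 (0.37) and Acot4 (0.44) scatter.

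Among the members themselves, 16 of 45 pairs had r above 0.5 over the 12 arrays with genotype means removed, 11 were below 0 and the median was 0.33. The closest pair was Acot12 with Acot13 (r = 0.87), genes that share chromosome 13 but no cluster. Acot1 and Acot2, adjacent in the cluster, had r = 0.58, and the called pair Acot3 and Acot4 had r = 0.41. All pairs share the same 12 livers, so these values are descriptions.

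The transcripts most like each member were looked for among 9969 genes above the median level, by Pearson r over the 12 arrays with genotype means removed; with so many genes searched, high values are to be found for any gene. Acot1 was most like Ehhadh (r = 0.92), which encodes the peroxisomal bifunctional enzyme, then Cgrrf1 (0.91) and Igfals (0.89). Acot2 was most like Serpina6 (0.91), the corticosteroid-binding globulin, Srrd (0.90) and Abcc9 (0.89). Acot3 was most like Thumpd3 (0.93), Suz12 (0.92), a subunit of the Polycomb complex PRC2, and Zfp131 (0.87). Acot4 was most like Adgrl2 (0.87), Lztr1 (0.86) and Rubcn (0.86). For Acot12 these were Cradd (0.98), the mitochondrial oxodicarboxylate carrier Slc25a21 (0.97) and the organic anion pump Abcc2 (0.96), and for Acot13 Ugt2b36 (0.96), the aspartoacylase Aspa (0.95) and the mitochondrial deacylase Sirt3 (0.94). Acot7 was most like Pbld2 (0.94), Mrpl40 (0.93) and Nat8f5 (0.92), and Acot8 like Ube2e2 (0.91), Zfp113 (0.85) and Dusp28 (0.85). The dim Acot5 and Acot6 are left out of this description.

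Relatives of the family outside the 10 members were not called: 0 of 14 passed the limma test in either direction (5 at an unadjusted p under 0.05), with a median log2 difference of 0.12. Among the remaining Acot genes, Acot9 (mitochondrial) had means of 25.0 ± 2.62 on WT arrays and 30.5 ± 5.11 on K289R arrays (SD, n = 6 each; log2 difference 0.28, limma adjusted p = 0.312), Acot11 had a difference of 0.13 and Acot10 one of -0.05. Acnat2, of the acyltransferase branch that shares its fold with the type I thioesterases, went the other way. It measured 161, 234 and 430 (lowest, median, highest) in WT and 129, 172 and 218 in K289R, a log2 difference of -0.58 (95% interval -1.03 to -0.14; limma adjusted p = 0.276). Its highest WT values were on WT 3 and WT 1 (430 and 398), the acute phase arrays. Its neighbour in function Acnat1 had a log2 difference of -0.05.

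The enzymes that make, carry and oxidise acyl-CoA had small positive medians with no call. The lists share genes: the PPARα list also holds Vnn1 of the CoA list, Ehhadh, Acaa1b and Pex11a of the peroxisomal list, and Cpt1a, Slc25a20 and Decr1 of the beta-oxidation list, among others. Their counts and medians are therefore not independent of each other. Of 26 PPARα targets none passed the limma test in either direction (10 at an unadjusted p under 0.05), 18 were above 0 and the median log2 difference was 0.15, with the largest in Cd36, a fatty acid transporter (1.14, limma adjusted p = 0.133), and Angptl4, a lipase inhibitor (0.91, adjusted p = 0.174). The classical PPARα targets Cyp4a10 and Cyp4a14, omega-hydroxylases, and Ehhadh had differences of -0.07 (95% interval -0.22 to 0.09), -0.07 (-0.21 to 0.07) and -0.25 (-0.63 to 0.12), which settle no direction. Cyp4a31, another Cyp4a gene of the list, had -0.27, with an interval below 0 (95% interval -0.49 to -0.04, limma adjusted p = 0.330). The targets Acaa1b, Pex11a and Pdk4 had 0.49, 0.43 and 0.29 without passing. Of 21 acyl-CoA synthetases and binding proteins none passed (4 at an unadjusted p under 0.05; median 0.08), the largest being the synthetase Acss3 (0.51, adjusted p = 0.144) and Acss2 (0.27, adjusted p = 0.589). Of 16 genes of CoA synthesis and breakdown none passed (6 at an unadjusted p under 0.05; median 0.09): the pantetheinase Vnn1 had a difference of 0.74 (adjusted p = 0.173), and Nudt7, the peroxisomal CoA hydrolase, one of -0.30 (adjusted p = 0.289).

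Of 22 genes of peroxisomal acyl-CoA metabolism none passed the limma test, whereas 10 had an unadjusted p under 0.05 (median 0.11). The nearest to the threshold was Abcd2, which imports very-long-chain acyl-CoA into peroxisomes. It measured 27.2, 57.9 and 71.3 (lowest, median, highest) in WT and 64.5, 108 and 128 in K289R, a log2 difference of 0.91 (95% interval 0.48 to 1.34; limma adjusted p = 0.0572). The groups overlapped only through K289R 3, at 64.5, which lay below WT 5 and WT 6. The thiolase Acaa1b had a difference of 0.49 (adjusted p = 0.271). Of 16 genes of mitochondrial beta-oxidation none passed (5 at an unadjusted p under 0.05; median 0.11), and 15 were above 0, with the carnitine carrier Slc25a20 at 0.22 (adjusted p = 0.274) and Decr1 at 0.18 (adjusted p = 0.401). Among all genes, 2399 of 19938 had an unadjusted p under 0.05, so such counts are read only beside that share.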

How the data were processed

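The authors deposited 1 value per probe set and array, made with Affymetrix Expression Console per the submitters' processing notes; its version is not given in the sources used here, nor is the normalization. The deposited values are linear intensities, as judged from their range; no detection call was used. Of 35556 rows, 21789 had 1 gene symbol in the platform annotation, 21698 of them found in RefSeq by gene ID; a gene with over 1 probe set was represented by its brightest. No row naming a member had several symbols. Log2 was taken without a pseudocount, and K289R was compared with WT by limma 3.58.1 in R 4.3.3 (lmFit and eBayes, 12 arrays, no covariate), with two-sided Benjamini-Hochberg adjustment over 19938 genes. Means ± SD are of linear intensities, folds of mean log2 values. Relations to the PPARα list used 100000 resamples over 12 arrays regardless of genotype, or exact enumeration within 6 arrays. Samples are separate mice per the labels.

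The members and the lists were chosen with earlier results of these data known. Genes outside the family were named as follows: called genes of a list (at most 4), otherwise the 2 with the largest differences; 3 most alike genes per member; 3 neighbours on each side of the cluster. Other genes named (Cyp4a10, Cyp4a14, Cyp4a31, Ehhadh, Pex11a, Pdk4, Acot10, Acot11, Acnat1) were chosen after their values were seen. Replicate numbers name different mice; deviations of same-numbered arrays correlated from -0.23 to 0.23, so no block was used. On simulated data of 19938 genes the K289R against WT procedure called 90 of 100 genes changed 1.5-fold and 99 of 100 changed 2-fold, and 10 of its 199 calls were unchanged genes. Such rates were not tested separately for genes as variable as Acot2, Acot1 and Acot12. Their SD of log2 values in WT was 0.59, 0.36 and 0.35, against a median of 0.14 over all genes. A member without a call is therefore not read as unchanged. The number of arrays limits the precision. Figures were drawn with matplotlib 3.10.9.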

Additional observations from a re-analysis of the deposited data

Results flagged for a closer look

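In 20 groups of 6 arrays (10 members in 2 genotypes), 2 had an array far from the others, the gap to its nearest neighbour exceeding Dixon's critical share of the group's range on the log2 scale. Chance gives about 1 such group in 20. Acot1 on WT 3 was low among WT arrays (33.0 against 54.8 to 64.8 on the others), a gap of 0.752 of the range. Acot8 on WT 3 was low as well (55.2 against 63.8 to 69.5), a gap of 0.630 of the range.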

How the results depend on the processing

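Of 238 combinations of a member and an alternative setting, 219 kept the call or its absence, 19 lost the call and 0 gained one. Most of these combinations were of the 8 members without a call, which had none to lose. Acot3 did not pass in 15 of its 24 alternatives, and Acot4 in 4 of 24. All 24 alternatives gave a positive log2 difference for Acot3 (0.48 to 0.74, adjusted p from 0.0168 to 0.138) and Acot4 (0.56 to 0.74, adjusted p from 0.00522 to 0.216). The count of called members was 2; leaving out 1 array gave 1 to 2, and the call lost was then that of Acot3, without WT 1, 2, 3, 4 or 5 or K289R 1, 2, 4 or 5. With the replicate number as a block, which does not pair these mice, 1 member was called (Acot3 adjusted p = 0.0790), and 111 genes in all. Log2 of the value plus 16 also gave 1 called member. With all 35556 rows tested, 0 were called (adjusted p = 0.138 for Acot3 and 0.0659 for Acot4). That fit adjusted over more rows and also estimated the limma variances anew from all rows. The parts of these changes were not separated. No member (0) was called when the acute phase arrays (WT 1 and 3), the acinar arrays (K289R 1 and 3) or both pairs were left out; fewer arrays were fitted there. The count over all genes was 114 with all arrays, 75 without K289R 1 and 3, 65 without all 4 arrays, and 81 to 159 when 1 array was left out. By Pearson r, the relation to PPARα targets kept its call for Acot2, Acot12 and Acot13 with quantile normalization and without WT 1 and 3. By Spearman rho it did not pass for Acot1, Acot12 and Acot13 with quantile normalization (adjusted permutation p = 0.0935 for each), nor without WT 1 and 3 for Acot2, Acot12 and Acot13 (0.0588, 0.195 and 0.0588). That of Acot1 did not pass without WT 1 and 3 (adjusted permutation p = 0.244), and those of Acot7 and Acot8 passed under neither setting. Dim signal limits Acot3, Acot5 and Acot6.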
